A study of Mus musculus with 10 samples.

Results

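Leukemias that arise in mice of the same genotype can still differ from animal to animal. The comparison described here used 6 of the 10 arrays of the series, which hold 3 B cell leukemias of the acute lymphoblastic kind (B-ALL) and make up 3 of its 5 groups. The 3 leukemias came from the lymph nodes of mice 686, 713 and 760, all Ebf1+/- Pax5+/- (doubly heterozygous, dHet), with 2 arrays each. A gene's variation between leukemias was its variance between the 3 leukemia means set against the variance between the 2 arrays of a leukemia, with the slide as a block. The members are thus fixed by the sample labels and not by any measured value. The other 4 arrays, which enter no test here, hold 2 dHet pro-B cultures (Ebf1+/- Pax5+/- Rag2-/- fetal liver c-Kit positive cells grown on OP9 stroma with interleukin 7, Flt3 ligand and stem cell factor) and 2 samples of sorted wild-type pro-B cells (Fraction BC). The labels give no age of the mice and no sort of the leukemic cells, and each leukemia is 1 animal. They also do not say whether the 2 arrays of a leukemia hold separate RNA extracts, so every p-value below measures the spread between arrays of the same mouse, which may be technical. In such bulk samples, fewer cells of a type and less RNA per cell cannot be told apart.

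EBF1 and PAX5 are transcription factors that together switch on the genes of the B lineage, among them those of the pre-B cell receptor and its surrogate light chain. Loss of function of either gene is among the known lesions of B-ALL, in which progenitors stop at the pro-B or pre-B stage and keep dividing. Such cells normally carry rearranged immunoglobulin heavy chain genes and a terminal transferase (Dntt) that is lost as pre-B cells mature.

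Labelled RNA was hybridised to 1-colour arrays. A level below is the log2 of the scanner's processed signal minus the 75th percentile of its array, so 0 marks a probe at that percentile, and levels are given as replicate 1 then replicate 2. Replicate 1 of each leukemia lay on slide 1 and replicate 2 on slide 2. The number of arrays and their signal limit the precision: 35.7% to 42.9% of probes were well above background on the slide 1 arrays and 48.8% to 52.2% on the slide 2 arrays. The B lineage label was borne out by its markers on every array, with Vpreb1 between 8.81 and 9.19 and Igll1 between 6.41 and 7.44. Of the genes that define the genotype, Ebf1 stood at 1.56 and 2.08 in leukemia 686, 1.91 and 2.21 in 713, and 1.91 and 2.30 in 760. Pax5 was dim, at -3.59 and -6.57 in 686, -2.54 and -3.28 in 713, and -5.30 and -5.94 in 760, and was well above background on the 713 arrays but on no array of 686 or 760. On 686 replicate 1 the lowest level well above background was -2.13, above both 713 levels of Pax5. Lack of detection on that array therefore does not tell 686 from 713. The same Pax5 probe averaged -1.54 in the dHet pro-B cultures and -0.49 in wild-type pro-B cells. Where the probes lie relative to the targeted alleles was not examined, and since all 3 leukemias share the genotype these values do not check the labels.

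Between-leukemia variation was widespread and mostly of modest size. Of 12322 genes with a probe well above background on both arrays of at least 1 leukemia, 3830 (31.1%) varied, meaning that the limma F test over the 3 leukemias passed at an adjusted p of 0.05. A further 6587 (53.5%) were constant, meaning that the 95% intervals of all 3 pairwise differences lay within 2-fold and the F test did not pass, and 1905 were neither. Multiplied by the 2 arrays of a leukemia, the variance between leukemia means exceeded that left between arrays after the slide block in 85.0% of genes. Genes with no difference between leukemias can also exceed it by chance. The median gene spanned 0.50 on the log2 scale from its lowest to its highest leukemia, or 1.42-fold. Of the varying genes, 2531 spanned at least 2-fold and 596 at least 8-fold. Across all genes, 70.6% of the sum of squares lay between leukemias, 21.7% between the slides and 7.74% in the remainder. Among the 9799 genes well above background on all 6 arrays, 2611 (26.6%) varied, against 48.3% of the 2523 genes that were not. Brighter genes varied less often, from 35.7% in the dimmest quartile of these 9799 genes to 18.3% in the brightest.

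These counts depended on several settings. Without the replicate 1 array of 713 the varying genes numbered 2073, and without its replicate 2 array 1935. Without the slide block 1259 genes varied and 2947 were constant. With all probes kept regardless of brightness no gene passed the adjusted F test in limma, although 3949 had an unadjusted p under 0.05. Scaling each array to its median left 46 constant genes and 2284 varying ones, and moved the median difference of all genes from the others to -0.39 in 686, 0.11 in 713 and 0.28 in 760. Differences of groups of genes below are read against medians near 0 (-0.04, 0.01 and 0.03) under the scaling used here.

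Leukemia 713 stood furthest apart. It differed from 760 in 3785 genes (30.7%) and from 686 in 2811 (22.8%), while 686 and 760 differed in 1457 (11.8%). Differences of at least 2-fold numbered 2124 (17.2% of all genes) between 713 and 760, 1485 (12.1%) between 686 and 713, and 989 (8.03%) between 686 and 760. Against the mean of the others, 686 was higher in 3.73% of genes and lower in 6.78%, 713 in 17.4% and 13.8%, and 760 in 11.2% each way. Both arrays lay above all 4 others in 4.78% of genes for 686, 17.1% for 713 and 12.5% for 760, and below them in 8.29%, 14.3% and 9.93%. Among the varying genes the leukemia furthest from the others was 713 in most, with 1176 higher and 885 lower there, followed by 760 (622 higher, 599 lower) and 686 (167 higher, 381 lower). The median absolute difference over all genes was 0.36 between 713 and 760, 0.32 between 686 and 713, and 0.24 between 686 and 760. Each slide taken alone gave the same sign of the difference from the mean of the other leukemias in 3742 of the 3830 varying genes for 713, 3664 for 760 and 3369 for 686. The counts by pair moved by over 1.5 times when an array was left out. The 686 and 713 count fell to 1503 without 686 replicate 1, 1125 without 713 replicate 1 and 801 without 713 replicate 2. The 686 and 760 count fell to 725 without 686 replicate 1, 896 without 760 replicate 1 and 909 without 760 replicate 2. The 713 and 760 count fell to 1996 and 1793 without 713 replicate 1 or 2, and to 2277 and 2403 without 760 replicate 1 or 2.

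The share of genes that varied differed widely between gene lists. No cytosolic ribosomal protein gene varied among 69 measured, and 97.1% of them were constant, against 31.1% and 53.5% of all genes. The same held for the proteasome, with 0 of 31 genes varying and 90.3% constant. Of the mitochondrial ribosomal protein genes 1 of 59 varied, and of the oxidative phosphorylation subunits 3 of 74. These lists are bright, and bright genes varied less in general. In the brightest quartile of the genes well above background on all 6 arrays, 18.3% varied and 75% were constant. The part of brightness in the low counts of these lists was not tested. Below Rn18s, which is ribosomal RNA, the brightest constant genes of the whole table included the ribosomal protein genes Rps18 and Rpl7a and the core histone genes H2ac1 and H2ac20. The genes of replication and mitosis also varied seldom, with 3 of 39 passing and 74.4% constant. Cdk1, the kinase that drives entry into mitosis, lay between 2.93 and 3.72 on the 6 arrays with leukemia means spanning 0.15, and Mki67, a proliferation marker, between 5.54 and 6.24 with means spanning 0.39. The 3 that passed were Gins2, Rfc4 and Mcm7. Mcm7, a subunit of the replicative helicase, was at 7.29 and 6.38 in 686, 6.45 and 5.72 in 713, and 7.07 and 6.29 in 760 (0.67 lower in 713, SE 0.11, adjusted p = 0.0131), and its difference between 686 and 713 no longer passed without any 1 of the 713 or 760 arrays. The count of varying cell cycle genes was 0 without either 713 array or either 760 array, 5 without 686 replicate 1, and up to 19 under other scalings. Under other scalings the varying genes reached 15 for the mitochondrial ribosome, 9 for oxidative phosphorylation, 5 for the proteasome and 4 for the cytosolic ribosome. With an intensity trend and robust prior they reached 11, 9, 2 and 11, and oxidative phosphorylation reached 7 without 686 replicate 2 and the mitochondrial ribosome 4.

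**Figure D1:**
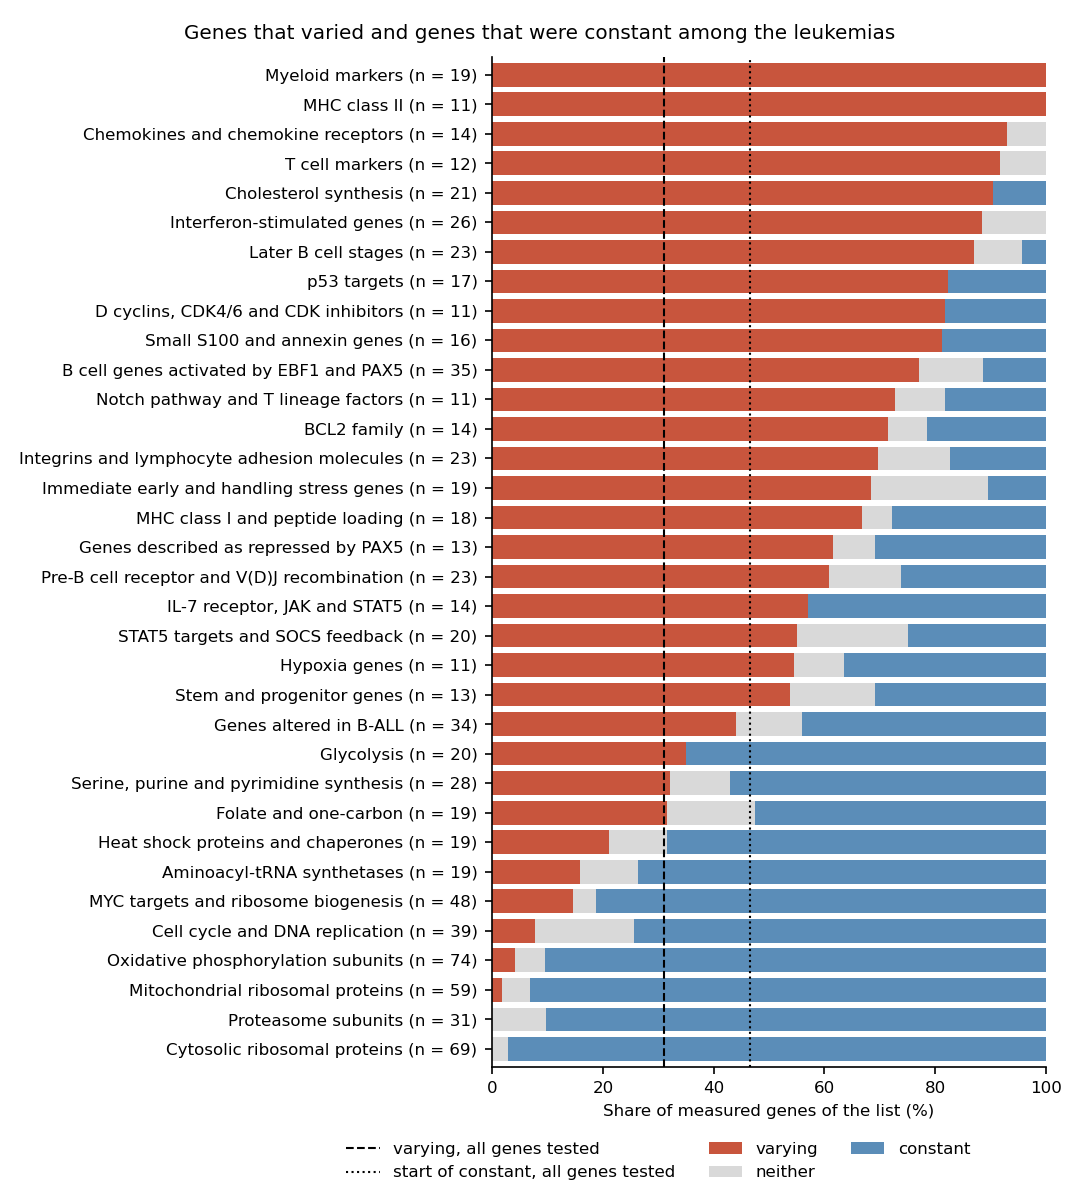
For each gene list with at least 10 measured genes, the bar shows the percentage of measured genes that varied, were neither, or were constant among the 3 leukemias (6 arrays). The dashed line marks the 31.1% of all 12322 genes that varied and the dotted line where the constant 53.5% begin. Ribosomal, proteasome and respiratory chain genes lie at the constant end, and myeloid, MHC class II, chemokine, T cell and cholesterol genes at the varying end.

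At the other end stood genes of immune recognition, maturation state and sterol metabolism. All 11 measured MHC class II genes varied, as did 19 of 21 cholesterol synthesis genes, 23 of 26 interferon-stimulated genes, 20 of 23 genes of later B cell stages and 27 of 35 targets that EBF1 and PAX5 activate in B cells. Lists near the share of all genes were glycolysis (7 of 20), serine, purine and pyrimidine synthesis (9 of 28) and folate metabolism (6 of 19), but these counts were not stable. Without 713 replicate 1 or 2 they were 2 and 3 for glycolysis, 2 and 1 for serine, purine and pyrimidine synthesis, and 1 and 1 for folate metabolism. Without 760 replicate 1 or 2 glycolysis fell to 3 each, and serine, purine and pyrimidine synthesis fell to 4 without 760 replicate 2 and to 5 without either 686 array. Other scalings gave 1 to 14, 1 to 22 and 1 to 12. Among chemokines and their receptors 13 of 14 varied, among S100 and annexin genes 13 of 16, and among integrins and other adhesion molecules 16 of 23. Only 6 of the 14 chemokine and receptor genes were well above background on all 6 arrays, and all 6 varied. Leaving out 713 replicate 2 lowered the interferon count to 15 and the later B cell count to 13, and leaving out either 713 array lowered the EBF1 and PAX5 count to 16. Leaving out 713 replicate 1 lowered the adhesion count to 9. The MHC class II, cholesterol, chemokine and S100 counts moved by less than 1.5 times when any array was left out.

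Several core regulators of the B lineage were alike in the leukemias. Ebf1 was constant, its leukemia means spanning 0.28. Ikzf1, which encodes the lymphoid factor Ikaros, was constant as well, at 0.88 and 1.36 in 686, 1.08 and 1.16 in 713, and 0.91 and 1.55 in 760. Vpreb1, the variable-like chain of the surrogate light chain, spanned 0.13 between leukemia means. The recombinase genes did not pass the test, Rag1 lying between 2.93 and 3.71 and Rag2 between -3.14 and -2.56 on the 6 arrays, and Rag2 met the rule for constant genes. Stat5a and Stat5b, which carry the interleukin 7 signal, were constant, as was Trp53. Pax5 did not pass the F test (adjusted p = 0.058), and its higher level in 713 passed the contrast against the other leukemias (2.44, SE 0.54, adjusted p = 0.0312). As neither 686 nor 760 had an array with the Pax5 probe well above background, the fold is given only as a bound, at least 1.76-fold higher in 713. Igll1, the constant-like part of the surrogate light chain, was 0.67 higher in 760 (SE 0.11, adjusted p = 0.016), but its difference between 760 and 713 no longer passed without any 1 of the 713 or 760 arrays.

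The MHC class II genes formed the most uniform varying group. Class II molecules present peptides to helper T cells and are made under the control of the coactivator CIITA. All 11 measured genes were higher in 713 than in the mean of the others, against 17.4% of all genes, and both 713 arrays lay above the other 4 in each, against 17.1% of all genes. The median difference was 2.46, and 2.27 and 2.65 on slides 1 and 2 alone. Cd74, the invariant chain that chaperones class II molecules, had the widest span, at 4.94 and 3.29 in 686, 7.77 and 6.40 in 713, and 3.82 and 2.12 in 760. It was 3.55 higher in 713 (SE 0.12, adjusted p = 0.00143), with no overlap between 713 and the others. Ciita itself was at -0.44 and -1.46 in 686 and -0.16 and -0.99 in 760, with both 713 arrays above these, a difference of 2.15 for 713 (SE 0.14, adjusted p = 0.00179). H2-Oa, part of the H2-O complex that restrains peptide loading, had the smallest span of the list among members seen on all 6 arrays, and still was 1.58 higher in 713 (SE 0.11). In the pro-B groups, measured on slide 3, Cd74 averaged -1.56 in the dHet cultures and 7.06 in wild-type cells. The median for 713 stayed between 2.02 and 2.57 under the 5 other scalings or normalizations, while without the slide block 7 of the 11 genes varied.

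Because the class II genes moved together, their RefSeq promoter windows (build GRCm38.p6, the 250 bases before the start) were searched on both strands for CCAAT, the core of the Y box of class II promoters. Of the 11 genes 8 had a window, and all 8 held at least 1 match, against 33.85% of all 32851 windows. H2-Aa and H2-Eb1, which encode classical class II chains, are printed over the 120 bases before the start, in the direction of the gene, and capitals mark CCAAT or its complement ATTGG. The H2-Aa window is chr17:34287824-34287943 on the minus strand and the H2-Eb1 window chr17:34305747-34305866 on the plus strand.
H2-Aa: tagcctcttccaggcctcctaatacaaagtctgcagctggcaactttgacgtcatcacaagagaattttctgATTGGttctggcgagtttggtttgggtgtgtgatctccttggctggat
H2-Eb1: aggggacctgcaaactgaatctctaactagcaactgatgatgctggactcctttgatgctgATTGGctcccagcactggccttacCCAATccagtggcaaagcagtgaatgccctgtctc
In H2-Aa the match covers bases 48 to 44 before the start, and in H2-Eb1 the matches cover bases 59 to 55 and 35 to 31. A match is a description of the sequence and not a measured binding site.

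Leukemia 713 also carried higher levels of genes from later B cell stages. Of 23 measured, 18 were higher in 713 and 1 lower, against 17.4% and 13.8% of all genes. In 760, 15 were lower, against 11.2% of all genes. Fcgr2b, the inhibitory Fc receptor of B cells, had the widest span, at 1.18 and 0.34 in 686, 3.92 and 3.27 in 713, and -0.46 and -1.78 in 760, in the order 713, 686, 760 without overlap. Ms4a1, which encodes CD20, was 2.07 higher in 713 (SE 0.11, adjusted p = 0.00149), and Cd86, a costimulatory ligand, was 3.21 higher in 713 (SE 0.23) and 3.15 lower in 760 (SE 0.23). Among the targets activated by EBF1 and PAX5, 24 of 35 were higher in 713 and 3 lower, against the same shares of all genes. Ikzf3, which encodes Aiolos, stood at -2.47 and -3.96 in 686, 1.04 and 1.52 in 713, and -2.37 and -2.71 in 760. It varied (adjusted p = 0.00702) with both 713 arrays highest and 686 and 760 overlapping, and was well above background on 1 of the 686 arrays, so the size of its difference is not given. Irf8, a regulator of B and myeloid cells, was 3.29 higher in 713 (SE 0.20, adjusted p = 0.00167). Foxo1, which keeps Rag and Il7r expressed, was 0.98 higher in 713 (SE 0.11), and its difference between 713 and 760 no longer passed without either 713 array. Klf2, a quiescence factor of mature lymphocytes on the later B cell list, differed between slides and not between leukemias, at 1.31 to 1.49 on slide 1 and 5.16 to 5.23 on slide 2.

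Adhesion and surface genes followed the same leukemia. Cd2, an adhesion receptor of lymphocytes, was at 0.01 and -2.05 in 686, 3.98 and 4.12 in 713, and -1.67 and -4.09 in 760. Cd44, the hyaluronan receptor, was at -0.26 and -1.01 in 686, 2.94 and 2.85 in 713, and -2.40 and -4.18 in 760, and Itgb7, the integrin chain that homes lymphocytes to gut, at 0.93 and 0.31, 3.44 and 3.11, and -0.61 and -1.41. In each of these the 713 arrays lay above all others, by 3.47 against the mean of the others for Itgb7 (SE 0.14), and Cd44 was well above background on 1 of the 760 arrays. S100a6, a small calcium-binding protein, was at 5.22 and 4.80 in 686, 8.20 and 8.09 in 713, and 3.75 and 2.71 in 760, while S100a9, a neutrophil and monocyte alarmin, followed another order, at 4.05 and 4.45, 1.46 and -0.35, and -0.66 and -2.89. Ly6a (Sca-1, a stem cell and activation marker) was 3.84 higher in 713 (SE 0.18, adjusted p = 0.00149). Adhesion genes were higher in 713 in 14 of 23 cases and lower in 2, against 17.4% and 13.8% of all genes.

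**Figure D2:**
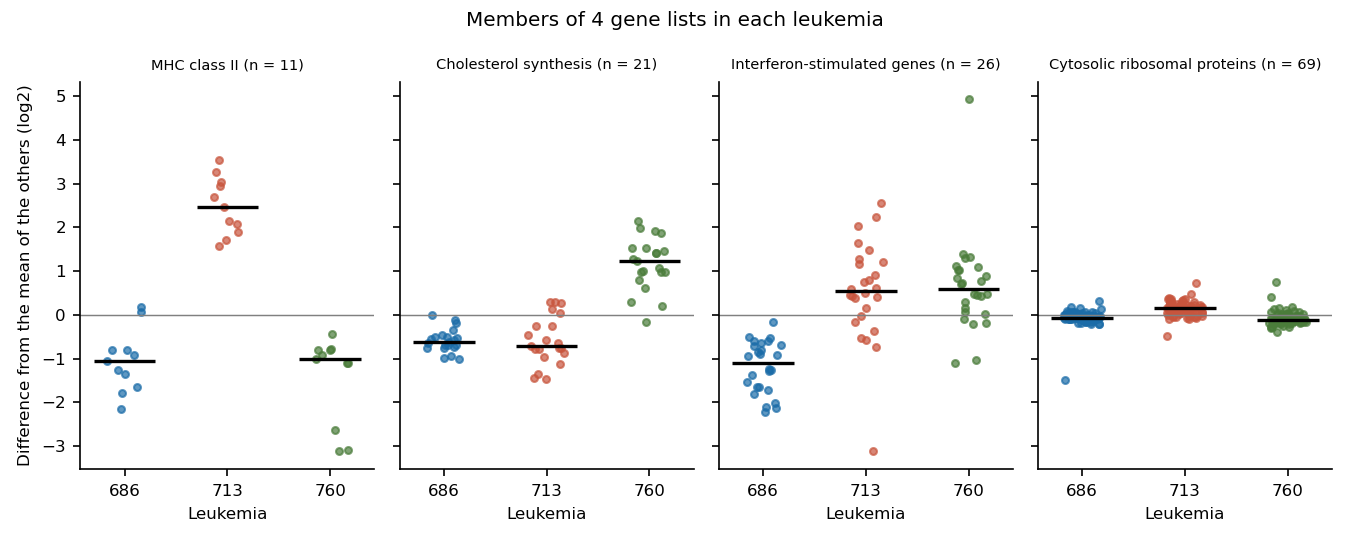
Each point is 1 gene, placed at its log2 difference between a leukemia and the mean of the other leukemias, for MHC class II, cholesterol synthesis, interferon-stimulated and cytosolic ribosomal protein genes, and the bar marks the median. MHC class II genes are all above 0 in 713 (median 2.46), cholesterol genes are mostly above 0 in 760 (median 1.24), interferon-stimulated genes are mostly below 0 in 686, and ribosomal genes lie close to 0.

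Immunoglobulin probes separated 760 from the others. They were fitted probe by probe, because members of a family share sequence and a probe can catch several of them. Of the 18428 kept probes 25.7% varied, and of the 25 kept probes for heavy chain variable family 1 all varied. In 760, 24 of these 25 were lower, with a median difference of -2.63, and 9 of 10 heavy chain constant region probes were lower, with a median of -3.04. Apart from mu, these 10 probes are for the alpha, gamma 1, gamma 2B and gamma 2C regions. The alpha and gamma probes had differences of -2.745 to -3.756 in 760. Which cells of the bulk samples held alpha and gamma transcripts was not tested. Of 36 kappa variable probes 26 were lower in 760 and 5 higher. Among all genes, 11.2% were lower and 11.2% higher in 760. Only 13 of the 36 kappa probes were well above background on all 6 arrays, against 20 of 25 for family 1 and 9 of 10 for heavy constant. A probe kept only through 686 or 713 is likely to be lower in 760 because of that choice, so the kappa count is partly set by it. The 3 lambda variable probes went the other way, all higher in 760 with a median of 2.63. The only kept lambda constant probe, for lambda constant 2, did not follow the lambda variable probes and was 2.49 lower in 760 (SE 0.12, adjusted p = 0.00165) and 1.61 higher in 713. Probes of the mu constant region disagreed. The probe that stands for Ighm among the genes was 0.62 higher in 760 (SE 0.10, adjusted p = 0.0171), another was 1.08 lower there (SE 0.12, adjusted p = 0.00719), and another did not vary (adjusted p = 0.491), so no direction is given for mu. The probes printed here were chosen after their values were seen, as clear cases of a variable segment higher in 1 leukemia, and each is the 60-base array probe as deposited, 5′ to 3′ in lower case.
Kappa variable 13-84, chr6:68889855-68889914 (mm9): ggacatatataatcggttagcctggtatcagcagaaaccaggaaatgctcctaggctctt
Heavy variable 1-31, chr12:116067618-116067677 (mm9): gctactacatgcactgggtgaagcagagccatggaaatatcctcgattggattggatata
Lambda variable 1, chr16:19085232-19085291 (mm9): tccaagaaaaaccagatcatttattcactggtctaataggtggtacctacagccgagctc
The kappa 13-84 probe stood at 1.47 and 0.57 in 686, -1.52 and -4.30 in 713, and -4.42 and -6.51 in 760, where it was not well above background on either array, and it varied (adjusted p = 0.00411). The heavy 1-31 probe was at -4.28 and -3.24 in 686, -1.69 and -0.77 in 713, and -5.26 and -4.88 in 760. It was well above background on both arrays of 713, 1 of 686 and none of 760, so the size of its difference is not given, and it varied (adjusted p = 0.00269). The lambda 1 probe was at -1.22 and -2.23 in 686, -0.50 and -0.76 in 713, and 1.65 and 1.28 in 760, higher in 760 (2.65, SE 0.20, adjusted p = 0.00297). Each leukemia was thus the highest for a different one of these segments, and in none did its arrays overlap with the others.

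**Figure D3:**
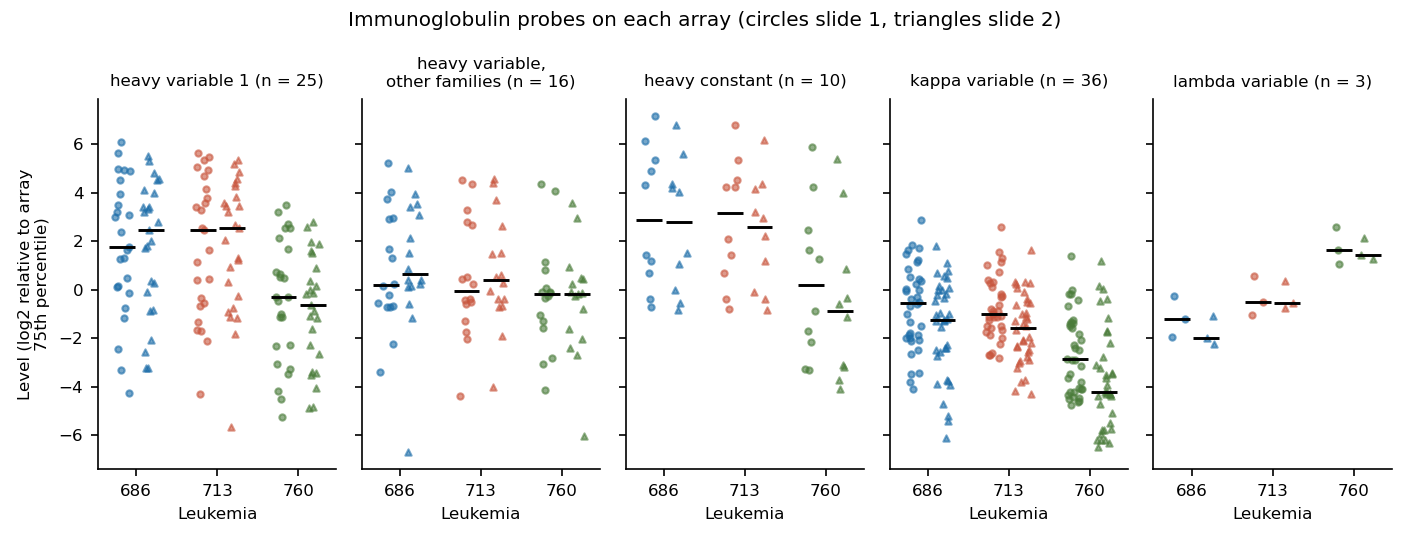
Log2 level, relative to the 75th percentile of the array, of immunoglobulin probes on each of the 6 arrays, by family. Circles are slide 1, triangles slide 2 and bars medians. Heavy chain family 1 (25 probes), heavy constant (10, mostly alpha and gamma) and kappa variable (36) probes sit lower in 760, and the 3 lambda variable probes higher.

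Dntt, which adds untemplated bases at V(D)J joints, went with leukemia 760. It was at 6.20 and 5.56 in 686, 4.91 and 4.19 in 713, and 8.45 and 8.14 in 760, with no overlap among the 3. The leukemia means spanned 13.4-fold, and 760 was 3.08 above the mean of the others (SE 0.13). In the pro-B groups Dntt averaged 6.40 in the dHet cultures and 7.33 in wild-type cells. Polm, a polymerase of the same end-joining family, had another order, at -1.54 and -3.10 in 686, 2.38 and 1.68 in 713, and -3.12 and -5.24 in 760, where 1 array was well above background. Among 23 measured genes of pre-B cell receptor signalling or of V(D)J recombination 14 varied, 6 without either 713 array and 9 without either 760 array.

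Leukemia 760 was marked by the sterol pathway, which makes cholesterol and the isoprenoids and is switched on by the factor SREBP2. Of 21 measured genes 18 were higher in 760 and none lower, against 11.2% of all genes in either direction, with a median difference of 1.24 that stayed between 0.94 and 1.49 under the other scalings. Fdps, which makes farnesyl diphosphate, was at 1.35 and 1.43 in 686, 0.93 and 0.90 in 713, and 3.17 and 3.10 in 760 (1.98 higher, SE 0.11, adjusted p = 0.00144). Idi1, the isopentenyl diphosphate isomerase, was at 1.94 and 1.98 in 686, 1.32 and 1.25 in 713, and 3.55 and 3.53 in 760 (1.92 higher, SE 0.10). In both genes the 760 arrays lay above the other 4. A search of the same promoter windows for a sterol element (TCAC and CCAC with any base between), on both strands, found it in 1 of 15 genes with a window, Hmgcs1 (6.7%), against 1.05% of all windows. Ebp, a sterol isomerase, was the member with the smallest span and was constant. Without the slide block 9 of the 21 genes varied.

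T cell markers as a list had no common direction in 760: of 12 measured, 5 were higher and 4 lower, against 11.2% of all genes each way. In 713, 5 were higher and 4 lower, against 17.4% and 13.8% of all genes. Single genes known from T cells and progenitors are given for their levels. Thy1, a surface glycoprotein of thymocytes, was at 2.58 and 2.10 in 686, 2.34 and 1.93 in 713, and 5.15 and 4.76 in 760 (2.72 higher, SE 0.10, adjusted p = 0.00114). Lat, an adaptor of the T cell receptor, was 2.79 higher (SE 0.12) and Lef1, a transcription factor of early lymphocytes, 1.63 higher (SE 0.11). Not all such genes followed. Cd3d, part of the T cell receptor complex, was 1.25 lower in 760 (SE 0.10). The T cell marker Cd8a was 1.22 lower (SE 0.17), not past the threshold between 713 and 760 without either 760 array. Ccnd2, a D cyclin, was 1.69 higher in 760 (SE 0.12). Its partner kinase Cdk6 was 1.22 higher in 760 (SE 0.13) and 1.38 lower in 713 (SE 0.13). Of the receptors of early progenitors, Kit was at 0.71 and 0.73 in 686, -0.54 and -0.92 in 713, and 1.20 and 1.27 in 760, while Flt3 was 2.54 lower in 760 (SE 0.18). The chemokine receptor Cxcr5 was 3.23 higher in 760 (SE 0.14) and 2.78 lower in 713 (SE 0.14). Cxcr5 went against most of its list. Of 14 measured chemokine and receptor genes, 1 was higher and 11 lower in 760, and 8 were higher and 1 lower in 713.

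Leukemia 686 was the lowest in interferon-stimulated genes, which answer interferon through STAT and IRF factors. Of 26 measured genes 18 were lower in 686 and none higher, against 6.78% of all genes lower there. In 713, 15 were higher, against 17.4% of all genes, and in 760, 12 were higher, against 11.2%. Isg15, a ubiquitin-like modifier, was at -0.04 and -0.65 in 686, 0.75 and 0.21 in 713, and 1.70 and 1.05 in 760 (1.27 lower in 686, SE 0.10, adjusted p = 0.00926). Usp18, which removes ISG15, was instead highest in 713, at 1.47 and 1.26 against -0.66 and -2.07 in 686 and -0.74 and -1.32 in 760. The median for 686 ranged from -1.45 to -0.64 under the other scalings. MHC class I genes were lower in 686 in 11 of 18 cases, against 6.78% of all genes, and varied in 12. That count was 3 without 686 replicate 1, 7 without 686 replicate 2, 2 without either 713 array, 7 without 760 replicate 1 and 0 without the slide block, and B2m, the class I light chain, was constant.

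The core of the interferon-stimulated response element, TTTC and TTTC with any 2 bases between, was searched on both strands over the same 250 bases. It was found in 9 of 19 interferon-stimulated genes that had a window (47.4%), against 2.98% of all windows. The Isg15 window is printed over 120 bases (GRCm38.p6, chr4:156200819-156200938, minus strand), with the matches, which overlap and read on the opposite strand, in capitals.
Isg15: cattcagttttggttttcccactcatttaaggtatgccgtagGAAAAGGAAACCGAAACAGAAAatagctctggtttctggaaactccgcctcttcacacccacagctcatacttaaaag

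Growth and survival genes differed one by one. Myc was 0.95 lower in 713 (SE 0.14, adjusted p = 0.0106), while Mycn was 2.36 higher there (SE 0.13), at -0.56 and -1.08 in 686, 1.98 and 1.77 in 713, and -0.05 and -0.24 in 760. The Myc difference between 760 and 713 no longer passed without either 713 array. Il2ra, a receptor chain induced by STAT5, was 2.34 lower in 713 (SE 0.22), and Jak3, the kinase of the interleukin 7 receptor, 1.22 higher in 760 (SE 0.16). Cdkn1a, a p53 target that inhibits cyclin-dependent kinases, was 3.48 higher in 713 (SE 0.20, adjusted p = 0.00156). Bbc3, which encodes the death promoter PUMA, was at 1.95 and 1.68 in 686, 0.73 and 0.02 in 713, and -1.01 and -1.05 in 760. Trp53 and its antagonist Mdm2 were constant. Of 17 measured p53 targets 14 varied, but between 6 and 10 with an array left out, the count being 7 without 686 replicate 1, 8 without 686 replicate 2, 7 and 6 without 713 replicate 1 or 2, and 9 without 760 replicate 1.

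Markers of other cell types moved with the leukemias as well. Of 26 myeloid markers 19 were measured and all 19 varied, against 31.1% of all genes. In 713, 14 were higher and 2 lower (17.4% and 13.8% of all genes). In 760, 15 were lower and none higher (11.2% of all genes each way). In 686, 6 were higher and 2 lower (3.73% and 6.78%). Of the 19, 11 were well above background on all 6 arrays and all 11 varied, against 26.6% of such genes. Their summed level on the linear scale was 201 and 228 in 686, 254 and 220 in 713, and 98.5 and 82.9 in 760, in units of the array's 75th percentile. S100a9 and Lyz2, the latter a lysozyme of macrophages and neutrophils, were both lowest in 760, Lyz2 at 6.20 and 6.64 in 686, 5.55 and 5.62 in 713, and 3.70 and 3.56 in 760. Erythroid and megakaryocyte markers summed to 48.1 and 22.1 in 686, 394 and 220 in 713, and 177 and 97 in 760. In the same order, T cell markers summed to 21.5 and 13.8, 34.4 and 24.4, and 57.2 and 40.1. Endothelial and lymph node stroma markers summed to 106 and 78.4, 35.4 and 17.9, and 59.4 and 33.1. Only 4 of the latter were measured, 3 higher and 1 lower in 713, so their sum does not give a common direction. General stromal markers, a list that includes Thy1, summed to 26.8 and 45, 28.5 and 54.8, and 55.1 and 58.1. Of 8 measured NK and cytotoxic markers 7 varied, with 6 higher and 1 lower in 713, and 1 higher and 6 lower in 760. Only 4 of these 8 were well above background on all 6 arrays. All 4 measured dendritic cell markers varied, with 1 higher and 1 lower in 713, and 1 higher and 2 lower in 760. The part of these cells in the differences of MHC class II, S100, interferon, T lineage and other genes was not tested.

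**Figure D4:**
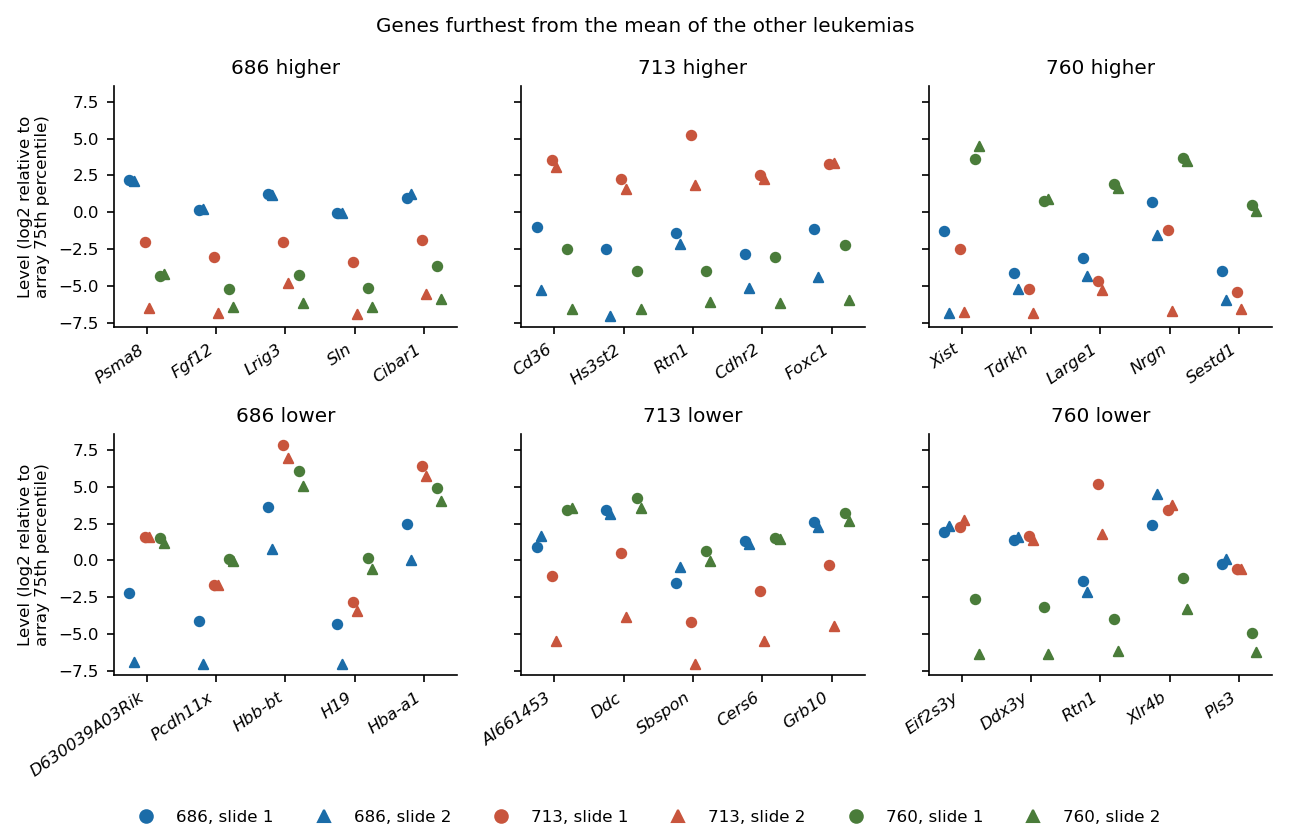
Log2 level on each of the 6 arrays for the genes with the largest differences of each leukemia from the mean of the others, with 1 panel for each leukemia and direction. The arrays of the named leukemia lie outside the range of the other 4 in every gene plotted, as the choice of genes requires.

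The largest single differences were chosen by size and are a description. Cd36, a fatty acid receptor well above background on both 713 arrays and 1 array of each other leukemia, was at -1.01 and -5.31 in 686, 3.52 and 3.05 in 713, and -2.48 and -6.56 in 760. Hs3st2, a heparan sulfate sulfotransferase, was well above background in 713 alone, at least 49.9-fold higher there. Such a bound sets the bright leukemia against the lowest signal well above background on the dim arrays. Tdrkh was at least 24.6-fold higher in 760, and Sln, which encodes sarcolipin, at least 15.4-fold higher in 686, a difference from 760 that did not pass without 686 replicate 2. The globins Hba-a1 and Hbb-bt were lowest in 686, with Hba-a1 at 2.50 and 0.05 there, 6.42 and 5.72 in 713, and 4.90 and 4.02 in 760. Sex-linked genes divided the mice as well: Xist was at -1.26 and -6.83 in 686, -2.51 and -6.78 in 713, and 3.59 and 4.48 in 760, and the Y-linked Ddx3y, above 0 on every array of 686 and 713, was at -3.13 and -6.34 in 760. The Xist difference between 760 and 713 did not pass without 713 replicate 2. The dim side of some such genes was also set out by slide. They were chosen on slide 2, as above the 75th percentile in 1 leukemia and well above background in no other. Low values on slide 2 and higher ones on slide 1 therefore follow at least in part from the choice. For 6 genes bright in 686, the signal in 713 was a median 10.9% of that in 686 on slide 1 and 0.99% on slide 2. For 10 genes bright in 713 the signal in 686 was 5.88% and 0.85%.

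Along the chromosomes, 713 and 760 held stretches in which neighbouring genes differed together. Medians and counts here are over genes with a position that were well above background on all 6 arrays. Of all 9042 such genes, 226 were higher and 533 lower in 686, 1283 and 1255 in 713, and 919 and 743 in 760. On chromosome 15 the 358 such genes had a median difference of 0.40 in 713, with 164 genes higher and 21 lower, and 0.43 and 0.40 on slides 1 and 2 alone. Ly6d, a marker of early B cell commitment on this chromosome, was 2.49 higher in 713 (SE 0.20), while Myc, on the same chromosome, was lower. On chromosome 1 in 760, 32 genes from Smarcal1 to Col4a4 (mm9, chr1:72679452-82447326) had a median of 0.75, or 1.68-fold, with 24 higher and none lower, and 27 higher and 1 lower among all 40 tested genes there. Further along, 52 genes from Sp100 to Pign (chr1:87596319-107417901) had a median of -0.84, or 1.78-fold lower, with 42 lower and none higher, and 44 lower and 4 higher among all 65 tested genes. Ncl, the nucleolar protein nucleolin, lies in that stretch and was 1.09 lower in 760 (SE 0.11). Smaller stretches of chromosome 1 were 24 genes from Eif4e2 to Rnpepl1 in 686 (median 0.48, 8 higher and none lower), 22 genes from Smarcal1 to Gmppa in 713 (-0.48, 15 lower and 1 higher) and 14 genes from Cab39 to Usp40 in 713 (0.44, 7 higher and 1 lower). These overlap the stretches of 760, whose level enters the mean of the others. In the same order, their medians were 0.03, 0.18 and -0.05 for 686 minus 713. For 686 minus 760 they were 0.77, -0.69 and 0.81, so these smaller stretches largely restate those of 760. The whole of chromosome 1 had a median of 0.02 in 760. The stretches were chosen after their values were seen, and DNA copy number was not measured.

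**Figure D5:**
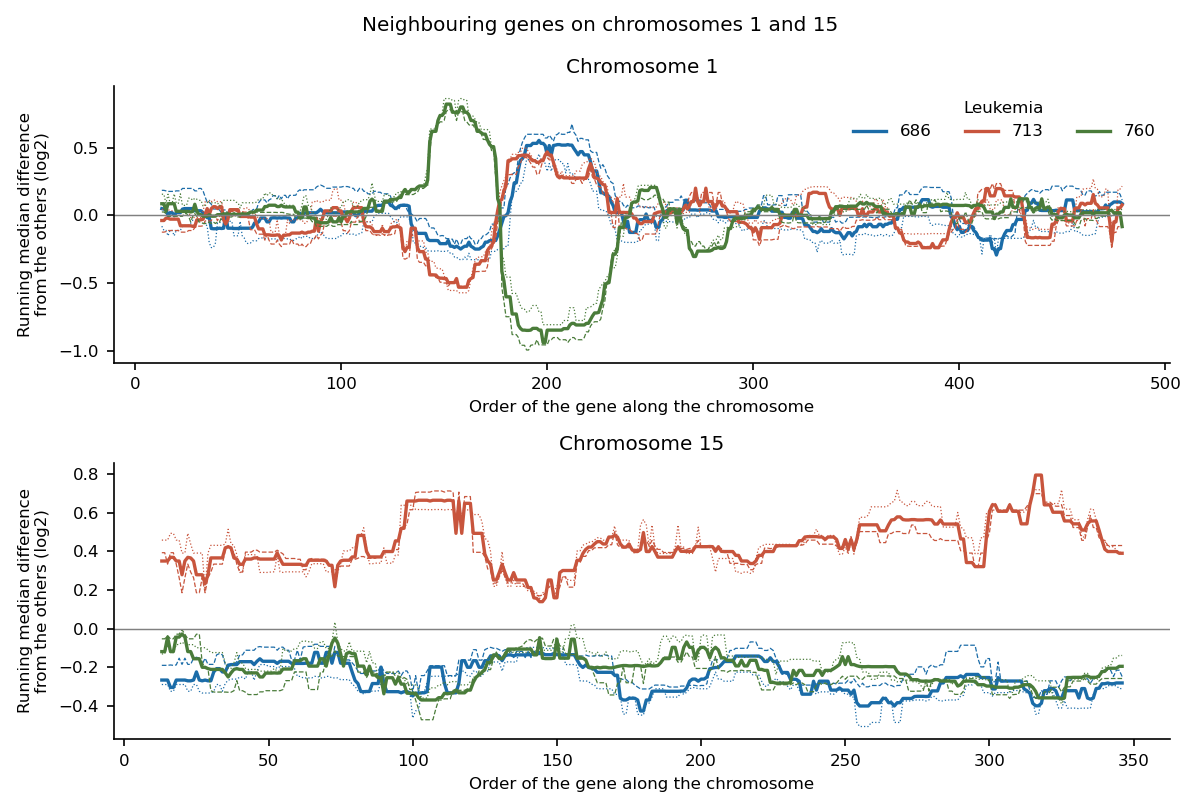
Running median over 25 genes, in gene order, of the log2 difference between a leukemia and the mean of the others along chromosomes 1 and 15. Thick lines are the mean of both slides, dotted lines slide 1 and dashed lines slide 2. The line of 760 rises and then falls on chromosome 1, and that of 713 lies above 0 along most of chromosome 15.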

How the data were processed

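RNA of the 6 leukemia arrays and 4 pro-B arrays was labelled with Cy3 and hybridised to 1-colour Agilent arrays designed on mm9. The spot intensity values are, per the file headers, Agilent Feature Extraction processed signals, background-subtracted and detrended within each array (version 9.1 in the submitters' processing notes). A table of log2 values was also deposited by the authors; its range and shared quantiles point to normalization between arrays, its background correction and centring are not stated, and it was used as an alternative. Here log2 of the processed signal minus the array's 75th percentile over non-control probes was used. Spots of a probe were averaged, probes well above background on both arrays of at least 1 leukemia were kept (18428), and a gene was represented by its brightest kept probe (12322 genes). limma 3.58.1 in R 4.3.3 fitted leukemia and slide (2 residual degrees of freedom), with a moderated F test, pair contrasts and contrasts against the mean of the others, each with Benjamini-Hochberg adjustment over all genes at 0.05; every adjusted p printed is from this fit. Replicate 1 arrays share slide 1 and replicate 2 arrays slide 2, per the file headers, and array deviations of the same number correlated at 0.613, 0.55 and 0.678 in the 3 pairs of leukemias, so the number was kept as a block. Data of 12322 genes were simulated with 50 genes changed at each size on the log2 scale. There the F test called 2% of genes changed by 1, 74% of those changed by 2 and 100% of those changed by 4. So few changed genes make the adjusted threshold stricter than in the real data, where 3830 genes varied. These shares are therefore not the power of the test on the real arrays. Named genes were, per leukemia, the 5 largest differences each way among varying genes whose arrays lay outside the others, of each list the members with the largest and smallest range and up to 2 more, a set of key genes, the 5 brightest constant genes and the 5 largest differences of a stretch that stood apart. The members and lists were chosen with earlier results of these data known. Promoter sequences are from RefSeq (GRCm38.p6).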

Additional observations from a re-analysis of the deposited data

How the results depend on the processing

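The slide block carried much of the precision: without the replicate block 1259 genes varied and 2947 were constant, the pairs differed in 575 (686 and 713), 380 (686 and 760) and 1420 (713 and 760) genes, and 63 genes were higher and 78 lower in 686, 752 and 505 in 713, and 389 and 553 in 760. With all probes kept, limma called 0 genes varying, 0 in each pair and 0 in each contrast against the mean of the others, with 4091 constant; at an unadjusted p under 0.05 there were 3949 varying, 3549, 2868 and 3649 in the pairs, and 1829 higher and 1027 lower in 686, 2008 and 1817 in 713, and 1319 and 1946 in 760. Scaling to the array median gave 2284 varying and 46 constant genes, 1403 between 686 and 713 and 1819 between 713 and 760, 281 higher in 686, 1162 higher and 612 lower in 713, and 855 higher and 735 lower in 760. Quantile normalization gave 816 genes between 686 and 760, and 205 higher and 456 lower in 686. Counts higher and lower in 686 were 938 and 1273 with normexp and quantile normalization, 1042 and 1307 in the authors' deposited log2 table, 233 and 405 with array weights, and 993 and 1441 with an intensity trend and robust prior, which gave 2296 genes between 686 and 760; with probes detected on all 6 arrays 719 were higher in 686. The share of 686 calls that were higher was 35.5%, against 27.6% with median scaling, 44.9% with the percentile of detected probes and 44.4% in the authors' table, and that of 713 was 55.7% against 65.5% with median scaling. Without leukemia 713 there were 1206 varying genes and without 760 there were 2517. The chromosome 15 median in 713 was 0.509 with median scaling, 0.361 with quantile normalization, 0.325 with normexp and quantile normalization and 0.434 on slide 1 alone; the higher stretch of chromosome 1 in 760 was at 1.001, 0.594 with normexp and quantile normalization and 0.682 on slide 2 alone, and the lower stretch at -0.585 with median scaling. The causes were not tested. With 1 array left out, the lone array being assumed to vary like the others, varying genes ranged from 1935 to 4086 and constant genes from 4487 to 6572. The pairs ranged from 801 to 2517, 725 to 1290 and 1793 to 4233 (686 and 713, 686 and 760, 713 and 760). Higher and lower counts ranged from 174 to 459 and 302 to 655 in 686, 873 to 2260 and 515 to 1787 in 713, and 619 to 1610 and 848 to 1463 in 760. Of 234 named gene results 165 lost their call with all probes kept, 71 without the replicate block and 32 with median scaling, and none reversed.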

Other observations

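A bright gene differed on a single array. Uqcrc2, a subunit of respiratory complex III, was at 2.83 and 5.84 in 686, 5.72 and 5.77 in 713, and 5.87 and 5.88 in 760. Replicate 1 of 686 was the low array, and the gene did not pass the F test of limma (adjusted p = 0.304).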
